A study of Mus musculus with 6 samples.

Results

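Haem export, breakdown and sensing were followed through 7 genes, Hmox1, Hmox2, Blvra, Blvrb, Bach1, Abcg2 and Flvcr1, in sorted mouse erythroblasts. The genes were chosen by function, with earlier results of these data known. Every probe set annotated to one of their symbols alone was taken. All 7 genes were on the array, with 8 probe sets among the 22626 tested, because Bach1 had 2 probe sets and each of the other genes had 1. The cells were CD71-positive erythroblasts, the nucleated precursors of red cells, sorted from the bone marrow of FVB/N mice on the transferrin receptor. The wild type group had 3 samples, and the mutant RPS19 group had 3 samples from mice that carried a transgene for the ribosomal protein RPS19 with the change R62W. According to its title, the series is on Diamond-Blackfan anaemia, in which too few red cells are made from birth. What drives the transgene, and how old and of which sex the mice were, is not stated in the labels. Whether each sample is a separate animal is also not stated, so the spread behind every p-value here may be technical at least in part. Mutant replicate 3 differed from the other arrays in sex-linked genes (below), so the mutant samples were not all from 1 animal.

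Haem is made in large amounts in erythroblasts for haemoglobin, and free haem is toxic to the cell. Haem oxygenases, encoded by Hmox1 and Hmox2, open the haem ring to biliverdin and release iron and carbon monoxide. The biliverdin reductase encoded by Blvra reduces this biliverdin to bilirubin, and Blvrb encodes biliverdin reductase B, a flavin reductase. Bach1 is a repressor that binds haem, leaves DNA when haem is plentiful, and so lets Hmox1 and other genes be transcribed. Flvcr1 exports haem across the cell membrane, and Abcg2 exports haem precursors and haem itself.

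The mutant arrays differed more from each other than the wild type arrays did. Over all probe sets, the SD of the log2 difference between a pair of arrays was 0.143 to 0.186 for pairs of wild type arrays and 0.345 to 0.503 for pairs of mutant arrays. Spiked polyadenylated control transcripts read 8.74 to 8.77 (log2) on wild type and 11.58 to 13.47 on mutant arrays, and the Gapdh 3' minus 5' control difference was -0.087 to -0.049 on wild type and 0.25 to 0.31 on mutant arrays. Each of these differences had an exact two-sided permutation p of 0.1, the smallest that 3 against 3 arrays allow. Mutant replicate 3 alone read the Y-linked Eif2s3y (8.34, against 2.23 to 2.45 elsewhere) above Xist. The brightest Xist probe set read 5.78 on that array and 11.38 to 12.07 elsewhere. By these genes male cells were read on that array only, so sex was mixed in the mutant group and not in the wild type group. Erythroid markers (13 genes, summed signal) read 14.75 to 14.81 (log2) on wild type arrays, 14.16 on mutant replicate 1 and 14.85 to 14.86 on mutant replicates 2 and 3. The defining erythroid genes were well above the array medians on every array, with means of 11.64 and 11.25 for Klf1 and 12.14 and 11.80 for the brightest probe set of the sort marker Tfrc (log2, wild type and mutant). Neutrophil markers (12 genes) were also bright, with a summed signal of 14.94 to 15.05 (log2) on wild type arrays and 15.63, 14.50 and 14.04 on mutant replicates 1, 2 and 3. The part of these array differences in the results was not tested. The genotype could not be checked from Rps19, whose log2 signal was 12.10 ± 0.032 (SD, n = 3) without and 12.08 ± 0.024 (SD, n = 3) with the transgene, because it is not stated whether its probe set reads the transgene.

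None of the 8 probe sets passed the test between mutant and wild type (limma, Benjamini-Hochberg adjusted p under 0.05 over all 22626 probe sets), and 3 of them had an unadjusted p under 0.05. Of all probe sets, 2.33% passed the test and 19.1% had an unadjusted p under 0.05. The 3 were Hmox1 and Blvrb, both with a lower mutant mean, and 1 of the Bach1 probe sets, with a higher mutant mean. In the same 3 the mutant and wild type arrays did not overlap, and in the other 5 they did. Groups without overlap were found in 26.1% of all probe sets, 11.4% with the mutant higher and 14.7% with the mutant lower, so 3 of 8 is read as a description of these genes only. The median difference of the 8 probe sets was -0.05 on the log2 scale, and that of all probe sets was -0.01.

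**Figure D1:**
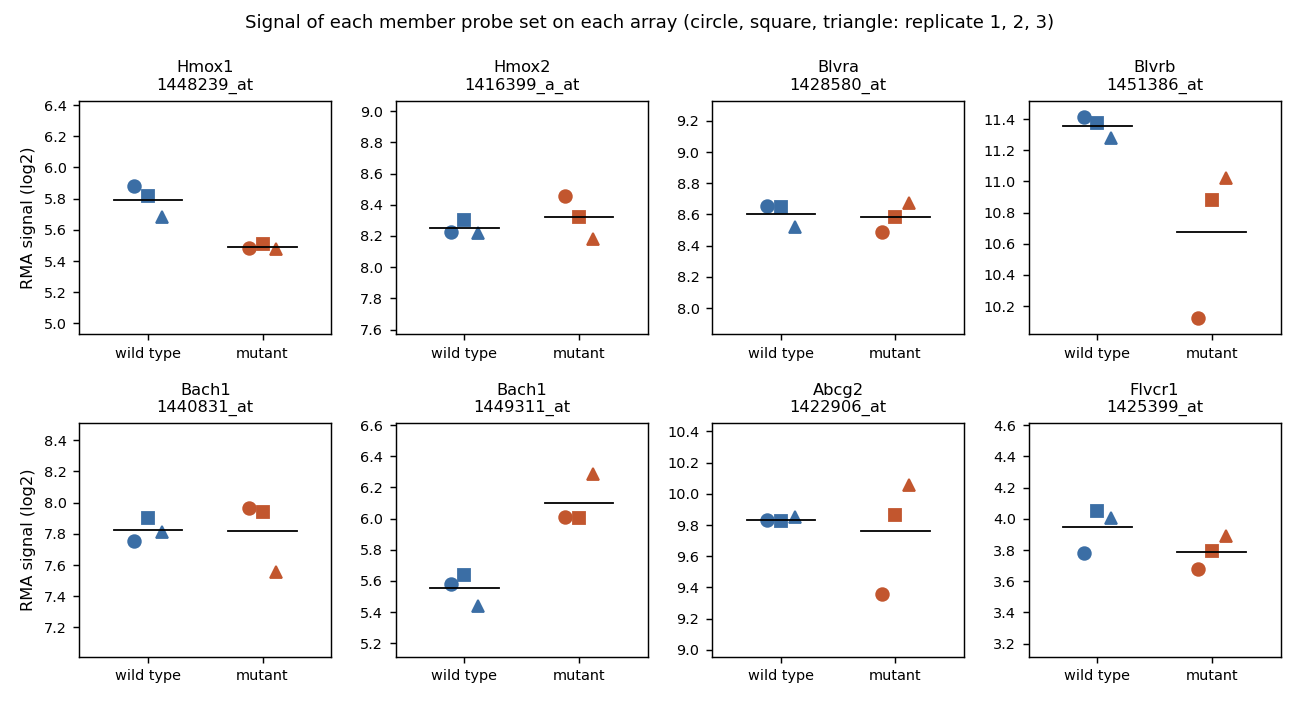
RMA signal (log2, vertical axis) of each of the 8 probe sets on the 3 wild type and 3 mutant arrays; a point is 1 array, a bar is the mean of 3, and every panel spans the same 1.5 log2 units around its own centre. The 3 mutant points lie below all wild type points for Hmox1 and Blvrb and above them for Bach1 probe set 1449311_at.

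Hmox1 encodes the inducible haem oxygenase. Its probe set read 5.88, 5.82 and 5.68 (log2 signal) on the wild type arrays and 5.48, 5.51 and 5.48 on the mutant arrays. The mutant arrays lay within 0.03 log2 units of each other and all lay below the lowest wild type array. The difference was -0.30 ± 0.094 (mutant minus wild type, log2, SE; 95% confidence interval -0.52 to -0.08; limma adjusted p = 0.14), or 81.1% of the wild type signal with an interval of 69.6 to 94.4%. By p the probe set ranked 2121 of 22626. The adjusted p ran from 0.064 to 0.43 over the alternative settings, and the difference stayed between -0.36 and -0.26. Each signal is near the median of its array (5.35 to 5.41), and a signal this low follows a change in transcript less closely than a bright one.

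Macrophages, which engulf nuclei expelled by erythroblasts and break down haem, also make Hmox1, and the sort could hold some of them. Of 17 macrophage markers, 15 genes were measured, and their summed signal was 11.57 to 11.71 (log2) on the wild type arrays and 11.80, 11.70 and 10.98 on mutant replicates 1, 2 and 3. None of the 25 macrophage probe sets passed the test (1 had an unadjusted p under 0.05, limma). A lower mutant mean was found in 19 of the 25, with a median difference of -0.12. In 5 every mutant array was below every wild type array, which held for 14.7% of all probe sets. The part of these markers in the Hmox1 result was not tested. In bulk RNA fewer cells of a type and less RNA per cell cannot be told apart.

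Hmox2 encodes the constitutive haem oxygenase. It read 8.22, 8.30 and 8.22 on the wild type arrays and 8.46, 8.32 and 8.18 on the mutant arrays, so that the highest and the lowest of the 6 values were both mutant. The difference was 0.07 ± 0.10 (log2, SE; 95% confidence interval -0.17 to 0.31; limma adjusted p = 0.76). Without mutant replicate 1 it was 0.003, and without mutant replicate 3 it was 0.14. The interval of Hmox2 reaches from 88.8 to 124% of the wild type signal. The intervals of Hmox1 and Hmox2 overlap, and whether the genes differ in their response was not tested.

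Blvrb had the largest difference among the 8 probe sets over all arrays, though not without mutant replicate 1 (-0.41, against 0.59 for Bach1 probe set 1449311_at). It encodes biliverdin reductase B, a flavin reductase that is abundant in red cells. Its signal was 11.42, 11.37 and 11.28 on the wild type arrays and 10.12, 10.88 and 11.02 on the mutant arrays. All mutant arrays were below all wild type arrays, with mutant replicate 1 far below the other mutant arrays. The SD of 3 arrays was 0.071 for wild type and 0.48 for the mutant. The difference was -0.68 ± 0.22 (log2, SE; 95% confidence interval -1.20 to -0.16; limma adjusted p = 0.16), or 62.3% of the wild type signal. Without mutant replicate 1 the difference shrank to -0.41 ± 0.098 and passed the test (limma adjusted p = 0.041), its SE being smaller than that from all arrays, and with array weights it was -0.55 ± 0.14 (adjusted p = 0.032). In these settings calls over the whole array rose too, from 528 to 2544 without mutant replicate 1 and 2667 with array weights. Over all alternatives the adjusted p ran from 0.032 to 0.42.

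Blvra encodes the major biliverdin reductase of adult tissues. It read 8.65, 8.64 and 8.52 on the wild type arrays and 8.49, 8.58 and 8.68 on the mutant arrays, and the groups overlapped throughout. The difference was -0.02 ± 0.098 (log2, SE; 95% confidence interval -0.25 to 0.21; limma adjusted p = 0.93), and it took the other sign without mutant replicate 1 (0.02). The mutant mean was 98.4% of the wild type signal for Blvra and 62.3% for Blvrb, with 95% confidence intervals of 83.9 to 115% and 43.4 to 89.5%. These intervals overlap, and the difference between the reductases was not tested.

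The Bach1 probe sets did not read alike. Probe set 1449311_at read 5.58, 5.64 and 5.44 (log2) on the wild type arrays and 6.01, 6.002 and 6.28 on the mutant arrays. All mutant arrays were above all wild type arrays, and mutant replicate 3 was the highest. The difference was 0.55 ± 0.12 (log2, SE; 95% confidence interval 0.28 to 0.82), or 1.46 times the wild type signal, with an adjusted p of 0.060 by limma and rank 699 of 22626 by p. Its wild type mean of 5.55 was near the array medians (5.35 to 5.41). A signal this low follows a change in transcript less closely than a bright one. Among the members this probe set was the closest to the threshold. It passed without mutant replicate 1 (0.59, adjusted p = 0.024), with array weights (0.48, adjusted p = 0.023) and when probe sets with a mean under 5 were left out (0.55, adjusted p = 0.047). Calls rose over the whole array too, from 528 to 2544 without mutant replicate 1, 2667 with array weights and 631 without the dim probe sets. Over all alternatives the adjusted p ran from 0.023 to 0.24.

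Probe set 1440831_at of Bach1 read 7.75, 7.90 and 7.81 on the wild type arrays and 7.97, 7.94 and 7.55 on the mutant arrays. It was the brighter Bach1 probe set. Mutant replicates 1 and 2 were above every wild type array and mutant replicate 3 was below every one. The difference was -0.001 ± 0.13 (log2, SE; 95% confidence interval -0.31 to 0.31; limma adjusted p = 0.998). Mutant replicate 3 thus gave the highest value of 1 Bach1 probe set and the lowest of the other. With the mean of both probe sets the difference was 0.27 ± 0.082 (adjusted p = 0.17). The sources do not say which transcripts each probe set reads, so a higher level of Bach1 messenger RNA as a whole is not shown.

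B cell markers (9 genes measured of 10) had a summed signal of 9.47 to 9.55 (log2) on wild type arrays and 9.52, 11.51 and 10.50 on mutant replicates 1, 2 and 3. Of their 13 probe sets, 0 passed the test (5 had an unadjusted p under 0.05, limma) and 12 had a higher mutant mean, with a median difference of 0.88. In 6 every mutant array was above every wild type array, which held for 11.4% of all probe sets. Megakaryocyte markers (6 genes measured of 8) had a summed signal of 8.83 to 8.88 on wild type arrays and 9.81, 9.08 and 9.13 on mutant replicates 1, 2 and 3, without overlap between the groups (exact permutation p = 0.1). All 7 of the megakaryocyte probe sets had a higher mutant mean, and 1 rose (limma, adjusted p under 0.05), as did 0.941% of all probe sets. The part of these markers in the Bach1 values was not tested.

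**Figure D2:**
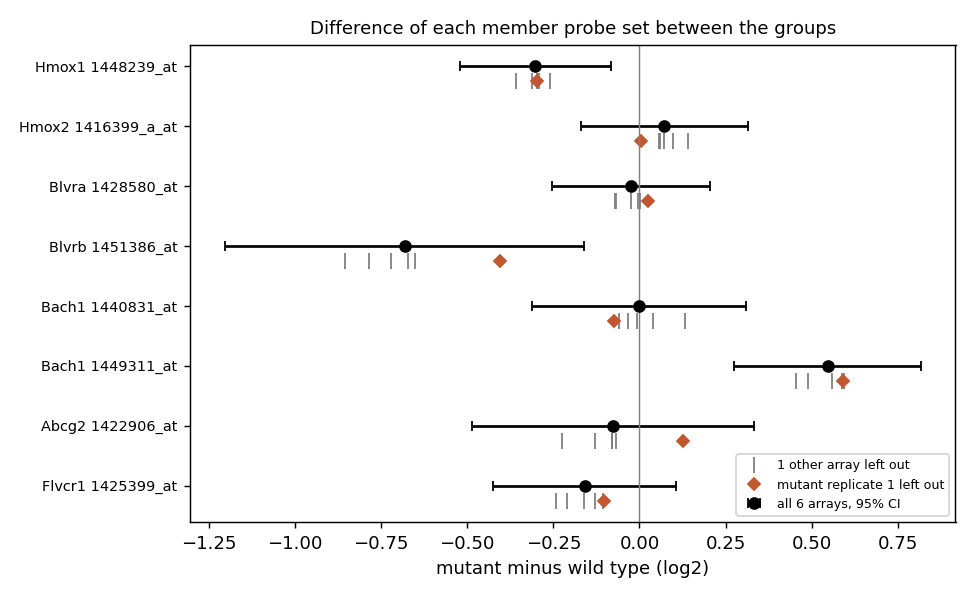
Mutant minus wild type difference (log2, horizontal axis) of each of the 8 probe sets; black points with bars are the limma estimates from all 6 arrays with 95% confidence intervals, and the marks below are the same estimate with 1 array left out. Without mutant replicate 1 Blvrb moves from -0.68 to -0.41 and Abcg2 from -0.08 to 0.13.

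Abcg2 is an exporter of porphyrins and haem. It read 9.83, 9.83 and 9.85 (log2) on the wild type arrays, the tightest group among the 8 probe sets with an SD of 0.013. The mutant arrays read 9.36, 9.87 and 10.05, with mutant replicate 1 below and replicates 2 and 3 above every wild type array (SD 0.36). The difference was -0.08 ± 0.17 (log2, SE; 95% confidence interval -0.48 to 0.33; limma adjusted p = 0.86). It turned to 0.13 ± 0.097 (adjusted p = 0.46) without mutant replicate 1 and to 0.02 with array weights, so no direction is given for Abcg2.

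Flvcr1 had the dimmest probe set. It read 3.78, 4.05 and 4.01 on the wild type arrays and 3.68, 3.79 and 3.89 on the mutant arrays, all well under the array medians, and the groups overlapped. The difference was -0.16 ± 0.11 (log2, SE; 95% confidence interval -0.42 to 0.11; limma adjusted p = 0.51). It was -0.10 without mutant replicate 1, -0.11 without wild type replicate 2 and -0.24 without wild type replicate 1. Without a detection call in the deposited table, it cannot be said whether this signal lies above background.

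Mutant replicate 1 was the lowest of the 3 mutant arrays in 4 of the 8 probe sets, those of Blvra, Blvrb, Abcg2 and Flvcr1, and this held for 41.8% of all probe sets. The erythroid marker sum was also lowest on that array, at 14.16 against 14.75 to 14.86 on the other 5. Of the 20 erythroid marker probe sets, 2 passed the test, both lower in the mutant, and 1.39% of all probe sets fell. Their median difference was -0.21, and the differences of the 20 ran from -1.74 to 0.35. A lower mutant mean was found in 15 of the 20. In 7 every mutant array was below every wild type array, which held for 14.7% of all probe sets. In 6 of the 8 member probe sets the mutant SD was larger than the wild type SD, which held for 76.7% of all probe sets. The exceptions were Hmox1, with an SD of 0.10 for wild type and 0.016 for mutant arrays, and Flvcr1 (0.15 and 0.11).

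**Figure D3:**
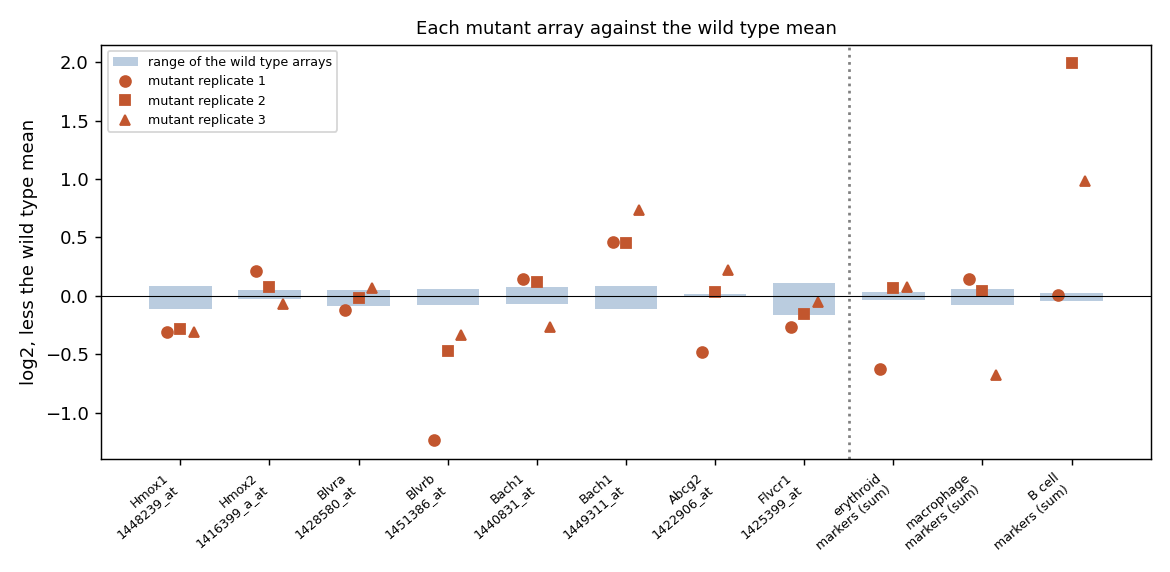
Signal of each mutant array less the wild type mean (log2, vertical axis) for the 8 probe sets and for the summed signal of 3 marker lists; shaded boxes span the wild type arrays and symbols mark mutant replicates. Mutant replicate 1 lies at -1.23 for Blvrb and -0.48 for Abcg2, and the Hmox1 values of the 3 mutant arrays lie from -0.31 to -0.28.

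The signal patterns nearest to those of the most variable members were sought over the 6 arrays, each probe set less its own mean. The measure was the root mean square difference, in log2 units, and no shared function is read from it. Nearest to Blvrb were H2aj (0.059), Usp18 (0.073), 4930430F08Rik (0.077) and Mtfr1 (0.079), and each had a lower mutant mean that did not pass the test. H2aj, a histone variant, differed by -0.72 ± 0.20 (log2, SE, limma adjusted p = 0.11). Nearest to Bach1 probe set 1449311_at were Man2c1 (0.031), 2 probe sets of Klhdc3 (0.038 and 0.042) and Mecr (0.042). Of these, Man2c1, a cytosolic mannosidase, rose by 0.61 ± 0.12 (adjusted p = 0.046), and the Klhdc3 probe sets differed by 0.54 and 0.51 (adjusted p = 0.059 and 0.067).

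Promoter sequence is shown for Bach1 and Blvrb because their groups did not overlap and RefSeq windows were at hand for them. The RefSeq table (GRCm38.p6) matched 6 of the 7 genes with 11 windows, the other gene being Hmox1. Each stretch is the 250 bases before an annotated start, 5' to 3' on the plus strand, in lower case, with capitals at matches to CCNCNCCC, the kind of CACC box that the erythroid factor Klf1 binds, on either strand.
Bach1, chr16:87698704-87698953: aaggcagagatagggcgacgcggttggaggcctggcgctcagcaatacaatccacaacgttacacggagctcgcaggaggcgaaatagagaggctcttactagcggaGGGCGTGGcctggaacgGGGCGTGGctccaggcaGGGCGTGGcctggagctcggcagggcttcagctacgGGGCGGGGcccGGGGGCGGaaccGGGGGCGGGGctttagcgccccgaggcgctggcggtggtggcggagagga
Blvrb, chr7:27447728-27447977: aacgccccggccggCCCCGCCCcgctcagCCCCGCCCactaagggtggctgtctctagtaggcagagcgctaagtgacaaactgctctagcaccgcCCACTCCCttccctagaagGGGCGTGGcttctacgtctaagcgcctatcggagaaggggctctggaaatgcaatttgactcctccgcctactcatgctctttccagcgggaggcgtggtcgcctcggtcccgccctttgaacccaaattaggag

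The Bach1 window held 7 matches to CCNCNCCC, from 143 to 48 bases before the start, and the Blvrb window held 4. Of these matches, 4 in Bach1 and 3 in Blvrb overlapped a GC box, GGGCGG on either strand. The other 3 in Bach1 were all the same word, CCACGCCC on the minus strand, which stood once in Blvrb. At least 1 match to CCNCNCCC was found in 45.9% and to CCACGCCC in 4.79% of all 32851 promoter windows of the same length. A second annotated start of Blvrb had 0 matches. The windows are rich in G and C, at 69.2% in Bach1 and 62% in Blvrb against a median of 52.4% over all windows.

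Motifs of other factors were counted in the same windows. The sequence TGANTCA, the core that Bach1 and its Maf partners bind, was in 0 of the 11 member windows and in 6.75% of all windows. The antioxidant response element core TGACNNNGC was in 2 of the 11 member windows, those of Blvra and Flvcr1, and in 10.2% of all windows. The GATA boxes AGATAA and TGATAA were in 0 of the 11 member windows, and in 9.99% and 7.94% of all windows. With 11 windows these counts are too few to set the members apart from all windows. A match is a description of the letters, and these windows leave out distant enhancers.

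Genes around the haem cycle were counted by probe set from lists made by function, with earlier results of these data known. Of 17 haem synthesis genes, 15 were measured with 27 probe sets, of which 2 rose and 0 fell (limma, adjusted p under 0.05; 0.941% of all probe sets rose and 1.39% fell), and the median was -0.07. They were Tmem14c, which moves porphyrin precursors within mitochondria, at 1.02 ± 0.19 (log2, SE; adjusted p = 0.044), and 1 of the 3 probe sets of Slc25a39, the mitochondrial glutathione carrier, at 0.48 ± 0.087 (adjusted p = 0.040). The other Slc25a39 probe sets differed by 0.30 and 0.26. In the whole list the differences ran from -1.02 to 1.02, and 15 of the 27 probe sets had a lower mutant mean. In 5 every mutant array was below every wild type array and in 4 above, against 14.7% and 11.4% of all probe sets. Without mutant replicate 1 the haem synthesis median turned to 0.13, and with any other array left out it ran from -0.17 (without mutant replicate 3) to -0.05.

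Of 14 genes of haem uptake and other haem carriers, 13 were measured with 19 probe sets, and 0 passed the test (3 had an unadjusted p under 0.05, limma). The median was 0.10, but 0.004 without wild type replicate 3, 0.05 without wild type replicate 2 and 0.05 without mutant replicate 2. Slc48a1, which moves haem out of lysosomes, differed by 0.29 ± 0.10 (adjusted p = 0.19) and by 0.14 on its other probe set, and the haem-binding protein gene Hebp2 by -0.46 ± 0.12 (adjusted p = 0.11) and 0.13 on probe sets that were both dim.

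Partners in the disposal of haem iron included ferritin and ferroportin, and 7 of 10 listed genes were measured with 12 probe sets. Of the 12, 1 fell and 0 rose, against 1.39% and 0.941% of all probe sets. One probe set of Fth1, the ferritin heavy chain that stores the iron haem oxygenase releases, fell by 0.63 ± 0.12 (log2, SE; limma adjusted p = 0.048), and the other differed by -0.25 ± 0.12. Slc40a1, the ferroportin gene, chosen after its values were seen, differed by -0.53 ± 0.12 (adjusted p = 0.066) and -0.26 ± 0.16. The list's median was -0.05, or -0.11 without mutant replicate 1 and -0.007 after a further quantile normalisation without the controls.

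Bach1 acts with small Maf proteins on the same sites as Nrf2, the activator encoded by Nfe2l2. Of 13 genes of partners and regulators 11 were measured with 19 probe sets, and 0 passed the test (5 had an unadjusted p under 0.05, limma; median 0.006). That median took either sign, at -0.008 after the further quantile normalisation and from -0.08 (without mutant replicate 3) to 0.05 (without mutant replicate 1) with 1 array left out. Nfe2l2 itself, chosen after its value was seen, had a log2 signal of 8.76 ± 0.015 (SD, n = 3) on wild type and 8.76 ± 0.24 (SD, n = 3) on mutant arrays. Fbxo22, which marks Bach1 for degradation, differed by -0.35 ± 0.11 (adjusted p = 0.14), with its other probe sets at 0.16 and 0.03. Keap1, the sensor that restrains Nrf2, had probe sets at 0.37 ± 0.098 and -0.51 ± 0.16 (adjusted p = 0.098 and 0.15). The largest difference, 1.89 ± 0.59 (adjusted p = 0.15), was that of Bach2, a relative of Bach1 known from B cells and chosen after its value was seen.

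Among 21 targets of Bach1 and Nrf2, 18 were measured with 35 probe sets, of which 2 fell and 0 rose. Of all probe sets, 1.39% fell and 0.941% rose. A lower mutant mean was found in 25 of the 35. Several of these genes had more than 1 probe set, so 25 is not a count of genes. The median was -0.08, or -0.03 without mutant replicate 2 and -0.12 without wild type replicate 3 or mutant replicate 3. The 2 were the Fth1 probe set above and 1 of Txnrd1, thioredoxin reductase, which fell by 0.71 ± 0.089 (log2, SE; limma adjusted p = 0.015). The other Txnrd1 probe sets differed by -0.54 ± 0.15 on a dim probe set and -0.08 ± 0.12 on the brightest. Their wild type means were 3.73 and 8.06 (log2), against 5.97 for the Txnrd1 probe set that fell. This list shares Fth1, Slc40a1 and Slc48a1 with the lists above, and Bach1 and Hmox1 are not in it.

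Other regulators that respond to haem were measured for 8 of 9 genes with 15 probe sets, and 0 passed the test (1 had an unadjusted p under 0.05, limma). The median was -0.05, but 0.004 without wild type replicate 2, -0.008 without wild type replicate 3, -0.11 without wild type replicate 1 and -0.03 without mutant replicate 1. Eif2ak1, the kinase HRI that slows translation when haem is short, differed by -0.80 ± 0.19 (log2, SE; adjusted p = 0.074) on 1 probe set, and by 0.45 ± 0.25 and 0.03 ± 0.18 on the others. Npas2, a haem-binding clock factor, differed by -0.32 and 0.15 on probe sets that were both dim.

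**Figure D4:**
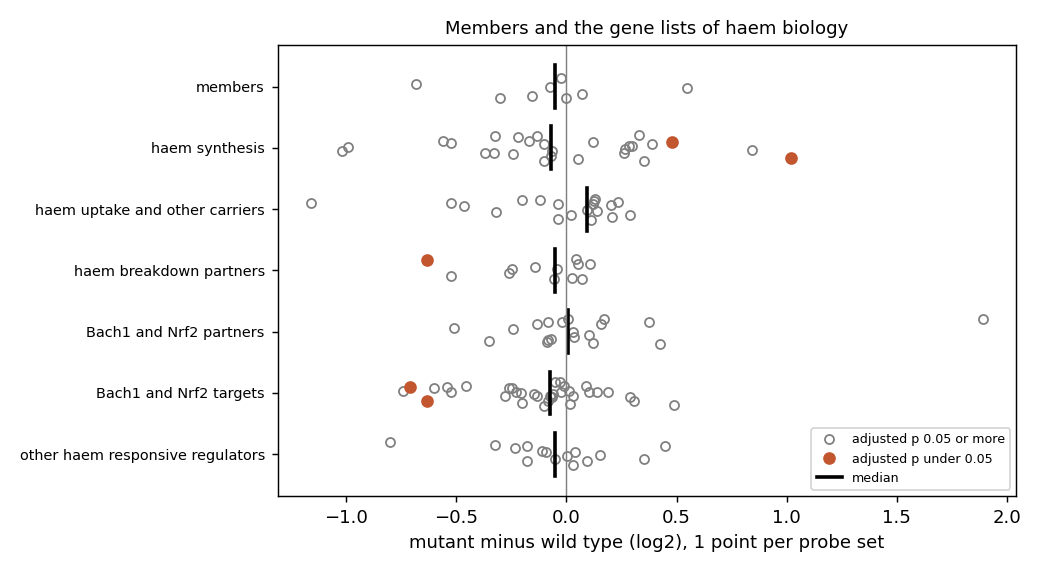
Mutant minus wild type difference (log2, horizontal axis) of the 8 member probe sets and of the probe sets of 6 lists of haem biology; filled points had a limma adjusted p under 0.05 and black bars are medians. The filled points are 2 in haem synthesis, 1 among breakdown partners and 2 among Bach1 and Nrf2 targets, of which 1 Fth1 probe set is in both, and the medians lie between -0.08 and 0.10.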

How the data were processed

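Per the submitters' processing notes, the authors ran GCOS and then RMA in Affymetrix Expression Console, which gives log2 values after background correction, quantile normalisation and summary by probe set. Each sample is 1 Affymetrix array of total RNA. Software versions: not given in the sources used here.

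Tests covered the 22626 probe sets that remain once 64 controls are removed, and 20380 of them have exactly 1 gene in the platform annotation. Entrez identifiers and symbols of all 7 genes matched RefSeq. The groups were compared with lmFit and eBayes of limma 3.58.1 (R 4.3.3) in a two-sided test without covariates, with Benjamini-Hochberg adjustment over all probe sets and a threshold of 0.05. The fit was tested on simulated data with the same SD in both groups, so the larger spread of the mutant arrays was not covered. Marker lists were summed as linear signal and put back on the log2 scale. The members and lists were chosen with earlier results of these data known. Named were every member, each list's genes with a called probe set or otherwise the 2 with the lowest p, and the 4 probe sets nearest in pattern to each of the 2 most variable members. Alternatives covered the variance prior, array weights, normalisation, dim probe sets, the replicate number, the threshold, probe sets per gene and leaving out each array. Figures were drawn in Python 3.11.15 with matplotlib 3.10.9. Precision is limited by having 3 arrays in a group.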

Additional observations from a re-analysis of the deposited data

How the results depend on the processing

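The count of called probe sets was 528 in all, 2667 with array weights, 112 with the replicate number as a block, 1386 at an adjusted p under 0.10, 41 with 1 probe set per gene (of 12393 genes) and 47 with the mean of a gene's probe sets. With 1 array left out it ran from 36 (without wild type replicate 2) to 2544 (without mutant replicate 1). Of the 8 member probe sets 0 were called, against 2 with array weights, 1 with probe sets of mean 5 or more, 1 at an adjusted p under 0.10 and 0 to 2 with 1 array left out (2 without mutant replicate 1). Hmox1, Hmox2, Blvrb, Bach1 probe set 1449311_at and Flvcr1 kept their sign under every setting that gave them a value. Bach1 probe set 1440831_at reversed to 0.0029 with array weights and to 0.27 with the mean of the gene's probe sets, and ran from -0.075 (without mutant replicate 1) to 0.13 with 1 array left out. Abcg2 reversed to 0.017 with array weights and ran from -0.22 to 0.13, and Blvra from -0.071 to 0.024, with 1 array left out. The causes were not tested. Whether same-numbered arrays of the groups were paired is not stated in the labels. The correlations of their deviations from the group means were 0.051, 0.028 and 0.055, and each wild type array correlated best with its own number. Whether they shared more than a number cannot be told from these values. The replicate block changed no member's call.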
